A study of Mus musculus with 16 samples.

Results

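The granule cell (GC) lineage of the dentate gyrus (DG) passes through a series of transcription factors, and 10 of them were followed here across classes of nuclei and between WT and V321L mice: *Prox1*, *Neurod1*, *Neurod2*, *Neurod6*, *Bcl11b*, *Sox11*, *Sox4*, *Nfix*, *Nfib* and *Eomes*. They were taken by gene symbol from the 32285 genes listed in each of the 8 matrices, without use of any measured value, and all 10 were found in every matrix. The study asked how a single amino acid change in *Nrg1* affects the diversity of GCs. V321L mice (genotype LL in the labels) carry leucine in place of valine in the transmembrane domain of Nrg1, a synaptic ligand of ErbB receptors, and WT mice (genotype VV) were the control. For each genotype the DG of 4 mice was microdissected, 2 females (F1 and F2) and 2 males (M1 and M2), frozen, and made into nuclei. Each mouse gave 1 library of the 10x Multiome kind, which reads the RNA and the accessible chromatin (ATAC) of the same nucleus. The methods give an age range for the mice of the study as a whole and no age for these 8, and no treatment other than genotype was labelled.

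New GCs arise in the subgranular zone from radial glia-like stem cells. These give dividing intermediate progenitors that express Eomes (Tbr2), a T-box factor, then neuroblasts that carry Sox4 and Sox11, the SoxC factors of immature neurons, and the basic helix-loop-helix factor Neurod1. Prox1, a homeobox factor, sets and keeps GC identity throughout, while Neurod2, Neurod6 and Bcl11b (Ctip2, a zinc finger factor) are factors of maturing and mature forebrain neurons, and the nuclear factor I proteins Nfix and Nfib act in stem cells, glia and neurons.

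RNA was counted as unique molecular identifiers (UMIs). Levels are given as UMIs of a gene per 1000000 UMIs of the same nuclei of a mouse (CPM), without further scaling, and were compared between classes or mice but not between genes. WT libraries held between 4326426 and 14624265 UMIs and V321L libraries between 15505354 and 23582057. The 16360 nuclei kept had median mitochondrial shares between 0.0695% and 0.128% in the WT libraries and between 0.389% and 1.17% in the V321L libraries. GC nuclei had a median of 1473.5 UMIs in WT and 3831.5 in V321L mice. Depth and the mitochondrial share therefore moved with genotype in every library, and their part in the genotype differences given here was not tested beyond the thinned values. Of 16201 distinct barcodes, 158 occurred as nuclei in more than 1 library.

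Clusters were made with the 10 genes left out, and 10844 nuclei were GC nuclei by their markers, 6710 from WT and 4134 from V321L mice. Neuroblasts were gated among the nuclei of the lineage by at least 2 of 7 immature markers (*Dcx*, *Igfbpl1*, *Draxin*, *Sema3c*, *Mex3a*, *Tac2*, *Cd24a*) with at least 3 UMIs of them. The gate held 120 nuclei, of which 115 lay in the 1 cluster that the same markers name, and 22 lineage nuclei lay just outside it with 2 markers and 2 UMIs. The WT mice gave 3, 8, 2 and 12 gated neuroblasts (F1, F2, M1 and M2) and the V321L mice 24, 36, 22 and 13. Values of neuroblasts were therefore read only in the mice with at least 5 of them, WT F2, WT M2 and the 4 V321L mice. Gated neuroblasts of the V321L mice held UMIs of all 7 immature markers and those of the WT mice of 5 to 6. The gate selects on these markers, and V321L mice gave more nuclei, so this is no check of it. In gated neuroblasts the summed level of the 8 GC markers was 1067 to 2864 CPM in V321L and 4040 to 5405 CPM in WT mice. That of 6 markers of cycling or intermediate progenitors was 155 to 537 CPM in V321L and 44.9 to 150 CPM in WT mice. In GC nuclei the latter was 29.6 to 36.4 and 17.6 to 21.4 CPM. Neurons whose markers did not settle a name are called by their leading genes. The naming score was set after seeing the data and kept clusters led by *Dpp10* and *Tshz2* (2.05% of WT and 3.38% of V321L nuclei) and by *Vwc2l* and *Cwh43* (0.508% and 1.30%) out of the CA pyramidal class.

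The 10 factors differed in the class where their mean level was highest, which is a description and not a test since clusters are built from expression. Gated neuroblasts had the highest mean over mice of 15 classes for 7 of the 10, namely *Prox1*, *Neurod1*, *Sox11*, *Sox4*, *Nfix*, *Nfib* and *Eomes*. The share of all genes that are highest in this small class is not given, so the count stands without a background. Class means and SDs pool both genotypes, in mixes that differ between classes. Gated neuroblasts had 2 WT and 4 V321L mice, GC nuclei 4 and 4, and vascular nuclei 1 and 3. The SDs therefore include genotype differences, and the order of classes was not read within a genotype. *Neurod6* and *Bcl11b* were highest in CA pyramidal nuclei and *Neurod2* in a small neuron cluster led by *Amigo2* and *Strip2*.

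*Prox1* stood at 597 ± 280.4 CPM in gated neuroblasts (SD, n = 6 mice), 249.7 ± 22.7 CPM in GC nuclei (n = 8) and 198 ± 55.0 CPM in oligodendrocytes (n = 8). The GC and oligodendrocyte means differed by less than the SD of the latter. *Prox1* was at or near 0 in the hilar and pyramidal neurons of these dissections, with 2.82 ± 5.37 CPM in CA pyramidal nuclei and 0 in all 5 mice with mossy nuclei. Oligodendrocytes held 128 to 275 CPM of *Prox1* over the mice of both genotypes and were not called between them. The glial values are given beside free RNA, whose part in them was not tested. Barcodes with at most 100 UMIs held 231 to 348 CPM of *Prox1* in WT and 56.2 to 83.1 CPM in V321L libraries. These barcodes held 506210 to 1225780 UMIs in all in WT and 2383796 to 3409055 in V321L libraries. CPM of free RNA, here and below, thus gives its composition and not its amount.

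*Neurod1* was far lower outside the neuroblasts, with 173 ± 40.3 CPM in them, 26.6 ± 11.1 CPM in GC nuclei and at most 18.3 ± 18.5 CPM in any other class. *Neurod2* was 138 ± 115 CPM in gated neuroblasts, 111 ± 61.7 CPM in GC nuclei, 108 ± 75.7 CPM in vascular nuclei (n = 4) and 82.1 ± 46.5 CPM in CA pyramidal nuclei. These means overlap within SDs that include the genotype difference, given below for GC nuclei. *Neurod2* was 39.6 ± 37.3 CPM in microglia and lowest, at 8.45 ± 10.6 CPM, in GABAergic nuclei. *Neurod6* had its own order, 124 ± 60.6 CPM in CA pyramidal nuclei (n = 7) and 121 ± 67.4 CPM in the neuron cluster led by *Cntnap5c* and *Nectin3* (n = 7), against 8.40 ± 7.30 CPM in GC nuclei. Mossy nuclei had 121 ± 182 CPM and the cluster led by *Amigo2* and *Strip2* 117 ± 97.4 CPM (n = 5 each), so the top classes did not differ beyond their SD. *Bcl11b* was 322 ± 57.4 CPM in CA pyramidal nuclei, 306 ± 105 CPM in the cluster led by *Vwc2l* and *Cwh43* (n = 4), 276 ± 56.4 CPM in GC nuclei, 228 ± 85.1 CPM in gated neuroblasts and 196 ± 140.0 CPM in vascular nuclei. It was 32.7 ± 14.6 CPM in the cluster led by *Cntnap5c* and *Nectin3* (n = 7) and 13.0 ± 24.2 CPM in mossy nuclei.

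*Sox11* was 501 ± 322 CPM in gated neuroblasts and at most 52.5 ± 71.3 CPM elsewhere. *Sox4* was 241 ± 187 CPM in gated neuroblasts and 186 ± 109 CPM in oligodendrocyte precursors (n = 8), neighbours that did not differ beyond their SD, and 13.2 ± 7.27 CPM in GC nuclei. *Nfix* and *Nfib* had UMIs in every class, but not in every mouse of each. In microglia *Nfib* ran from 0 to 1281 CPM over the mice of both genotypes, and the part of free RNA in this was not tested. After gated neuroblasts they were highest in Cajal-Retzius nuclei, *Nfix* at 236 ± 153 CPM and *Nfib* at 1812 ± 572 CPM (n = 7). *Eomes* was rare. It had 9 UMIs in 120 gated neuroblasts and 1 UMI in 10844 GC nuclei, with exact 95% Poisson intervals of 4.12 to 17.1 and 0.0253 to 5.57 UMIs that cover counting error only.

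**Figure D1:**
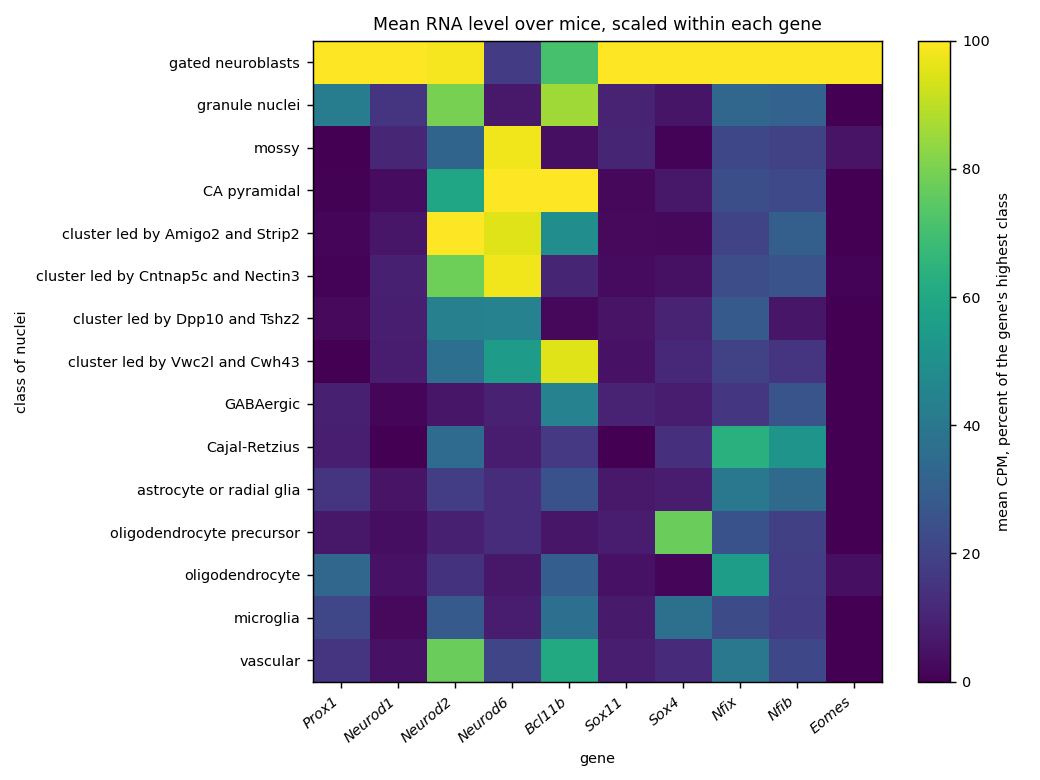
Mean CPM of each gene (columns) in 15 classes of nuclei (rows), over mice of both genotypes in mixes that differ between classes. Values are a percent of the gene's highest class, so that colours compare classes within a gene and not genes. Gated neuroblasts are the highest class for 7 of the 10 genes, a count without a share over all genes beside it. *Neurod6* and *Bcl11b* have their highest mean in CA pyramidal nuclei, close to that of other neuron classes.

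To test how the factors change between the immature and the mature end of the lineage, gated neuroblasts were compared with GC nuclei of the same 6 mice, with mouse as a block. The gate used none of the 10 genes. *Sox4*, *Sox11* and *Neurod1* were higher in neuroblasts under every scaling of the counts. *Nfib* was higher too, with a smaller difference, and *Prox1* and *Nfix* were higher by all scalings but TMM factors, those of the reported fit. *Neurod2* and *Neurod6* did not pass the test under any scaling. In the 2 WT mice alone *Nfib* was the only one called, at 0.94 (adjusted p = 0.00807).

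*Sox4* was at 0 and 269 CPM in the neuroblasts of WT F2 and M2 and at 231, 391, 490.3 and 62.1 CPM in those of V321L F1, F2, M1 and M2. In GC nuclei *Sox4* was 4.33 and 8.96 CPM in the same WT and 24.5, 15.7, 12.2 and 22.9 CPM in the V321L mice. Neuroblasts were above GC nuclei in 5 of 6 mice, the exception being WT F2, where no UMI was counted in 8 nuclei. On the log2 scale the difference was 3.48 ± 0.32 (SE, adjusted p = 1.38e-24).

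*Sox11* was at 75.1 and 404 CPM in the neuroblasts of WT F2 and M2 and at 304, 745, 981 and 497 CPM in those of the V321L mice. In GC nuclei *Sox11* was 36.2 and 44.0 CPM and 59.4, 55.0, 50.03 and 51.2 CPM. Neuroblasts were higher in 6 of 6 mice and the classes did not overlap. The fitted log2 difference was 2.61 ± 0.31 (adjusted p = 3.56e-15).

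*Neurod1*, which newborn GCs need to mature and survive, was at 225 and 135 CPM in the neuroblasts of the 2 WT mice and at 159, 195, 202 and 124 CPM in those of the V321L mice. In GC nuclei *Neurod1* was 15.6 and 17.9 CPM and 37.7, 28.7, 31.8 and 45.4 CPM. The classes did not overlap in 6 of 6 mice, and the log2 difference was 1.88 ± 0.34 (adjusted p = 1.13e-06).

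*Nfib* was at 4054 and 5341 CPM in the neuroblasts of the 2 WT mice and at 1909, 3199.7, 3923 and 2639.5 CPM in those of the V321L mice, all above the highest GC value of the 6 mice, 1366 CPM. The fitted log2 difference was 0.91 ± 0.30 (adjusted p = 0.0178). The call for *Nfib* was lost without V321L F2, M1 or M2 (adjusted p = 0.0921, 0.0581 and 0.0503).

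*Bcl11b* was lower in neuroblasts in 4 of 6 mice, with 75.1 and 224 CPM in the 2 WT and 260.4, 293, 202 and 311 CPM in the V321L mice, where GC nuclei had 203 and 224 CPM and 317, 292, 336 and 354 CPM. Its log2 difference was -0.94 ± 0.33 (adjusted p = 0.0329). It was not called under the other scalings, with -0.27 (adjusted p = 0.558) by factors from abundant genes, nor without WT F2, WT M2 or V321L M1 (adjusted p = 0.0707, 0.104 and 0.0672).

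*Prox1* was at 450.4 and 449 CPM in the neuroblasts of the 2 WT mice and at 564, 562, 1154 and 404 CPM in those of the V321L mice. GC nuclei of these mice had 220.3 to 289 CPM, so the classes did not overlap. The fit with TMM factors gave a log2 difference of 0.54 ± 0.31 (adjusted p = 0.242), and factors from abundant genes gave 1.28 ± 0.23 (adjusted p = 4.47e-07). *Nfix* had 225 to 808 CPM in neuroblasts and 72.8 to 201 CPM in GC nuclei, no overlap, and log2 differences of 0.71 ± 0.31 (adjusted p = 0.104) and 1.38 ± 0.25 (adjusted p = 9.62e-07). Both were called in that fit without WT F2 (adjusted p = 0.0479 and 0.0387) or WT M2 (adjusted p = 0.00601 and 0.0121). *Neurod2* was higher in neuroblasts in 3 of 6 mice, with a log2 difference of -0.52 (adjusted p = 0.349), and *Neurod6* in 3 of 6 mice, with 0.62 (adjusted p = 0.595). *Eomes* had too few UMIs for the filter of the fit. With no filter it was called, but against 1 UMI in GC nuclei the fitted difference is no bound and is not given. Its 9 UMIs came from V321L F2, M1 and M2, at 61.1, 57.7 and 62.1 CPM, and none from V321L F1 or from the 25 gated WT neuroblasts, a count of 0 whose 3-count limit is 12% of such nuclei with a UMI.

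In all, 5 of the 9 tested genes were called between the classes, 4 higher and 1 lower in neuroblasts, where 16.6% of the 12084 genes tested were called (4.63% higher and 11.9% lower). The median log2 difference over all genes was -0.385 in this fit. Factors from abundant genes, an alternative chosen after seeing the data because TMM factors were off on simulated sums of such unequal size, moved it to 0.213, with 10.5% of genes higher and 5.28% lower. On that scale 6 of the 9 were called, all higher. The gate was checked with genes that it does not use. They were not left out of the clustering, and *Plk5* is among the GC markers that name clusters, so the check is not independent. Of 7 other immature genes 5 were higher in the gated neuroblasts, such as *Calb2*, a calcium-binding protein of immature GCs, by 4.36 and *Stmn2* by 2.38 on the log2 scale. All 4 mature genes were lower, from *Ntng1* at -3.54 to *Plk5* at -1.50. The immature and mature genes were examined with TMM factors alone.

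**Figure D2:**
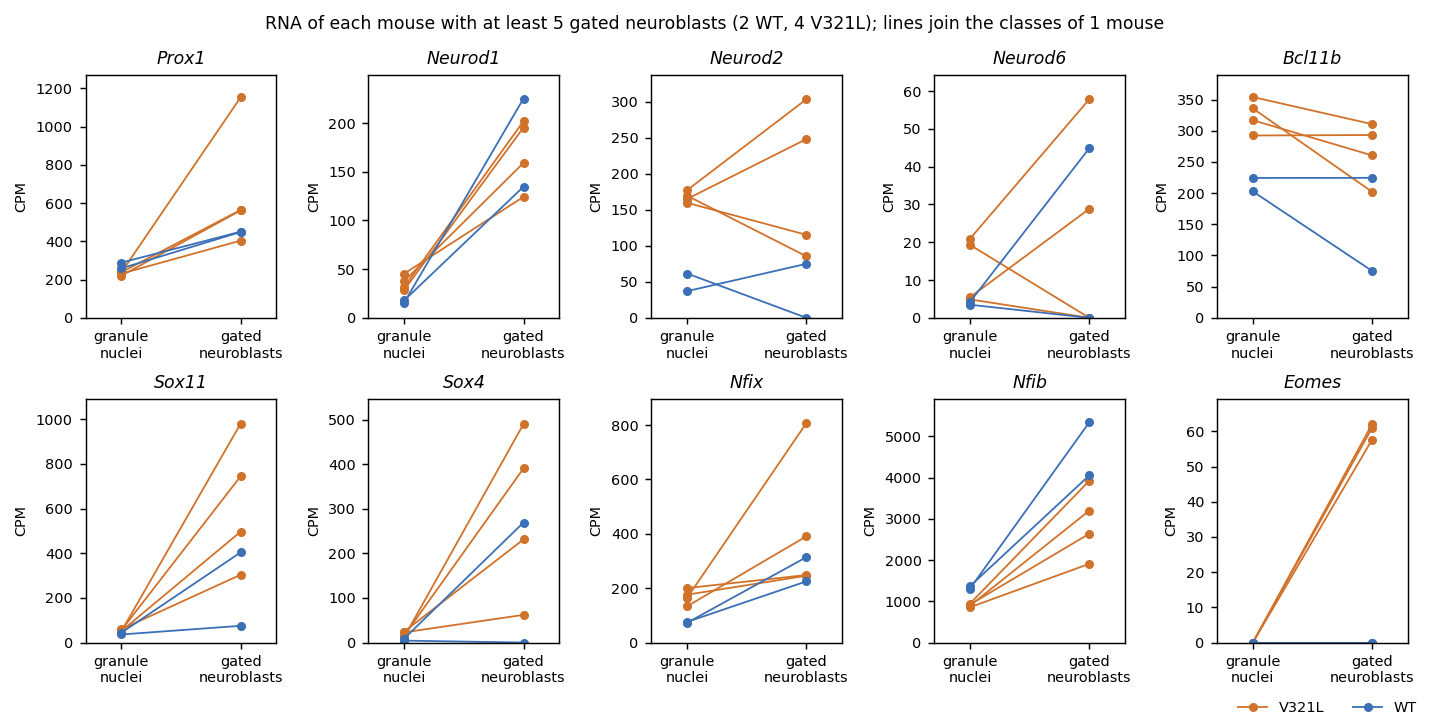
CPM of each gene in GC nuclei and gated neuroblasts of the 6 mice with at least 5 gated neuroblasts, with a line for each mouse (orange V321L, blue WT; y axis from 0). All lines rise for *Prox1*, *Neurod1*, *Sox11*, *Nfix* and *Nfib*, 5 of 6 for *Sox4*, and 3 of 6 for *Neurod2*, *Neurod6* and *Eomes*.

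The promoters of the genes that differed most between the classes are shown with those of *Neurod1* and *Prox1*, which mark the start and the identity of the lineage. Each line gives the 250 bases before a RefSeq transcription start on GRCm38.p6, 5′ to 3′ on the minus strand of the chromosome, with matches to the searched motifs in capitals. The spans are chr12:27342719-27342968 for *Sox11*, chr13:28953700-28953949 for *Sox4*, chr2:79456637-79456886 for *Neurod1* and chr1:190170828-190171077 for the upstream start of *Prox1*.
Sox11: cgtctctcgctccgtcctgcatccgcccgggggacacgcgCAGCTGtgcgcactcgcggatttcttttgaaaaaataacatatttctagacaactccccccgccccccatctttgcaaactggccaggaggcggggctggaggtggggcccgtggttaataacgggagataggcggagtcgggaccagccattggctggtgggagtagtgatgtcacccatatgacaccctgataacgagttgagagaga
Sox4: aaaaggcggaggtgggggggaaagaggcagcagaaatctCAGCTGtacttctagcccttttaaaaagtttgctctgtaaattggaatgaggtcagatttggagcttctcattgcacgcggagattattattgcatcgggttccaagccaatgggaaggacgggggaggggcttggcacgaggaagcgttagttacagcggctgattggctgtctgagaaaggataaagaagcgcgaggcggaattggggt
Neurod1: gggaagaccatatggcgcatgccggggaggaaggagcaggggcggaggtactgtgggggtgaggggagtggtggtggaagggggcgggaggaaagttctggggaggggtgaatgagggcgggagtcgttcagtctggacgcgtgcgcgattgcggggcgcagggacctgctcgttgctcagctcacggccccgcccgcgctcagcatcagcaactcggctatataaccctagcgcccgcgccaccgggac
Prox1: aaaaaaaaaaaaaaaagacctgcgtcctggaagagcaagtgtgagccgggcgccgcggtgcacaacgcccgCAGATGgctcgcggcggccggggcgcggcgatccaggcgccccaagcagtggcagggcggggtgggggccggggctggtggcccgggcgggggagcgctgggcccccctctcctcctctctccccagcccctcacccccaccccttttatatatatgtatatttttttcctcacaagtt

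Motifs were searched on both strands. They were the E-box CAGATG and a palindromic E-box spelled CAGCTG, which basic helix-loop-helix factors bind, the nuclear factor I palindrome, and a Sox motif spelled ACAAAG with its variant ACAATG. None of them overlaps another in the printed promoters. *Sox11* and *Sox4* each held 1 CAGCTG, 210 and 211 bases before their starts. The upstream promoter of *Prox1* held 1 CAGATG, 179 bases before the start, and that of *Neurod1* held none of the 5 motifs. A sequence was found for 9 of the 10 genes, with 13 promoters in all, of which 7 held a motif. The E-box CAGATG was found in 3 of the 13 promoters and in 14.4% of all 32851 promoters of this length. The palindromic E-box was found in 3 of the 13 (13.0% of all promoters), the Sox motif in 2 (16.5%), its variant in 1 (10.7%) and the nuclear factor I palindrome in none (0.0365%).

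To compare the genotypes in mature GCs, UMIs were summed over the GC nuclei of each mouse. V321L GC nuclei had more *Neurod2*, *Neurod1*, *Nfix* and *Sox4* and less *Nfib* and *Prox1* than WT GC nuclei. Of the 9 genes tested, 7 were called (5 higher and 2 lower in V321L mice, *Neurod6* being the fifth higher), where 70% of the 12251 genes tested were called (38.6% higher and 31.4% lower). The share called is thus near the background of this comparison. All 8 GC markers were detected in the GC nuclei of both genotypes, at a summed 6884 to 8138 CPM in WT and 4569.7 to 5249 CPM in V321L mice. The median log2 difference over all genes was 0.12. With library sizes alone it was 0.57, so that CPM ratios lie above the fitted differences. After thinning each nucleus to 1000 UMIs 4 were called, *Neurod2* (1.19), *Nfix* (0.74), *Prox1* (-0.65) and *Nfib* (-1.02), but not *Neurod1* (0.48, adjusted p = 0.0674) or *Sox4* (0.66, adjusted p = 0.149). The share of all genes called after thinning is not given, so this count stands without a background.

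*Neurod2*, a factor of excitatory synapse maturation, was 51.9, 37.1, 65.4 and 61.6 CPM in WT F1, F2, M1 and M2 and 177, 169.8, 159.9 and 165 CPM in V321L F1, F2, M1 and M2. Every V321L mouse was above every WT mouse. The log2 difference was 1.22 ± 0.12 (SE, adjusted p = 1.81e-06). In free RNA the CPM of *Neurod2* was higher in WT than in V321L libraries, 206 to 267 against 123 to 145 CPM. This is opposite to the nuclei in direction, but V321L libraries held more free RNA, whose part in the difference was not tested. *Neurod1* was 19.5, 15.6, 16.1 and 17.9 CPM in the WT and 37.7, 28.7, 31.8 and 45.4 CPM in the V321L mice, again without overlap. Its log2 difference was 0.58 ± 0.17 (adjusted p = 0.00729).

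*Neurod6* was 3.05, 3.47, 5.95 and 4.20 CPM in the WT and 20.9, 4.88, 5.44 and 19.3 CPM in the V321L mice. V321L F1 and M2 stood above all others, while V321L F2 and M1 lay within the WT range. The libraries of V321L F1 and M2 also stood apart, with median mitochondrial shares of 0.974 and 1.17% against 0.389 and 0.560% in F2 and M1, median ATAC counts of 2123 and 2094 against 6317.5 and 11077, and 86 and 111 against 17 and 9 nuclei in the cluster led by *Cntnap5c* and *Nectin3*, and the part of this in the split was not tested. The log2 difference was 1.16 ± 0.49 (adjusted p = 0.0458). The call was lost without any 1 of the mice WT F1, F2, M1 or M2 or V321L F1 or M2 (adjusted p between 0.0663 and 0.153), and by the size factors of DESeq2 (1.06, adjusted p = 0.0578). Free RNA of the libraries held 81.0 to 140 CPM of *Neurod6* in WT and 102 to 217 CPM in V321L mice, above every GC value, and its part in the GC level was not tested.

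*Nfix* was 71.1, 75.9, 92.8 and 72.8 CPM in the WT and 176, 133, 164 and 201 CPM in the V321L mice, without overlap. Its log2 difference was 0.67 ± 0.13 (adjusted p = 0.000476). *Nfib*, of the same family, went the other way, with 1355, 1366, 1198 and 1307 CPM in the WT and 856, 892, 943 and 921 CPM in the V321L mice. The groups did not overlap and the log2 difference was -0.99 ± 0.12 (adjusted p = 8.87e-06). Free RNA held 733 to 945 CPM of *Nfib* in WT and 154 to 199 CPM in V321L libraries, and 365 to 493 and 252 to 330 CPM of *Nfix*. For *Nfix* the CPM of free RNA thus differed between the genotypes in the direction opposite to the nuclei, and for *Nfib* in the same direction. The part of free RNA in these differences was not tested.

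*Prox1* was 272, 289, 252 and 259 CPM in the WT and 238, 220.3, 237 and 231 CPM in the V321L mice, so that the groups were close but did not overlap. The log2 difference was -0.67 ± 0.11 (adjusted p = 0.000136). With library sizes alone *Prox1* was still called, at -0.21. Free RNA, too, had a higher CPM of *Prox1* in WT than in V321L libraries, and its part in the difference was not tested.

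*Sox4* was 7.63, 4.33, 9.52 and 8.96 CPM in the WT and 24.5, 15.7, 12.2 and 22.9 CPM in the V321L mice, without overlap, at a log2 difference of 0.90 ± 0.26 (adjusted p = 0.00703). *Sox11* was 50.9, 36.2, 35.1 and 44.0 CPM in the WT and 59.4, 55.0, 50.03 and 51.2 CPM in the V321L mice. WT F1 lay within the V321L range, and the log2 difference was -0.09 (adjusted p = 0.584), or 0.37 (adjusted p = 0.0288) with library sizes alone. *Bcl11b* was 234, 203, 247 and 224 CPM in the WT and 317, 292, 336 and 354 CPM in the V321L mice. These values did not overlap, but the fit, which scales for the composition of the sums, gave 0.07 (adjusted p = 0.505), and library sizes alone gave 0.52 (adjusted p = 0.000215). *Eomes* had 1 UMI in all GC nuclei, from WT F1, and was not tested.

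**Figure D3:**
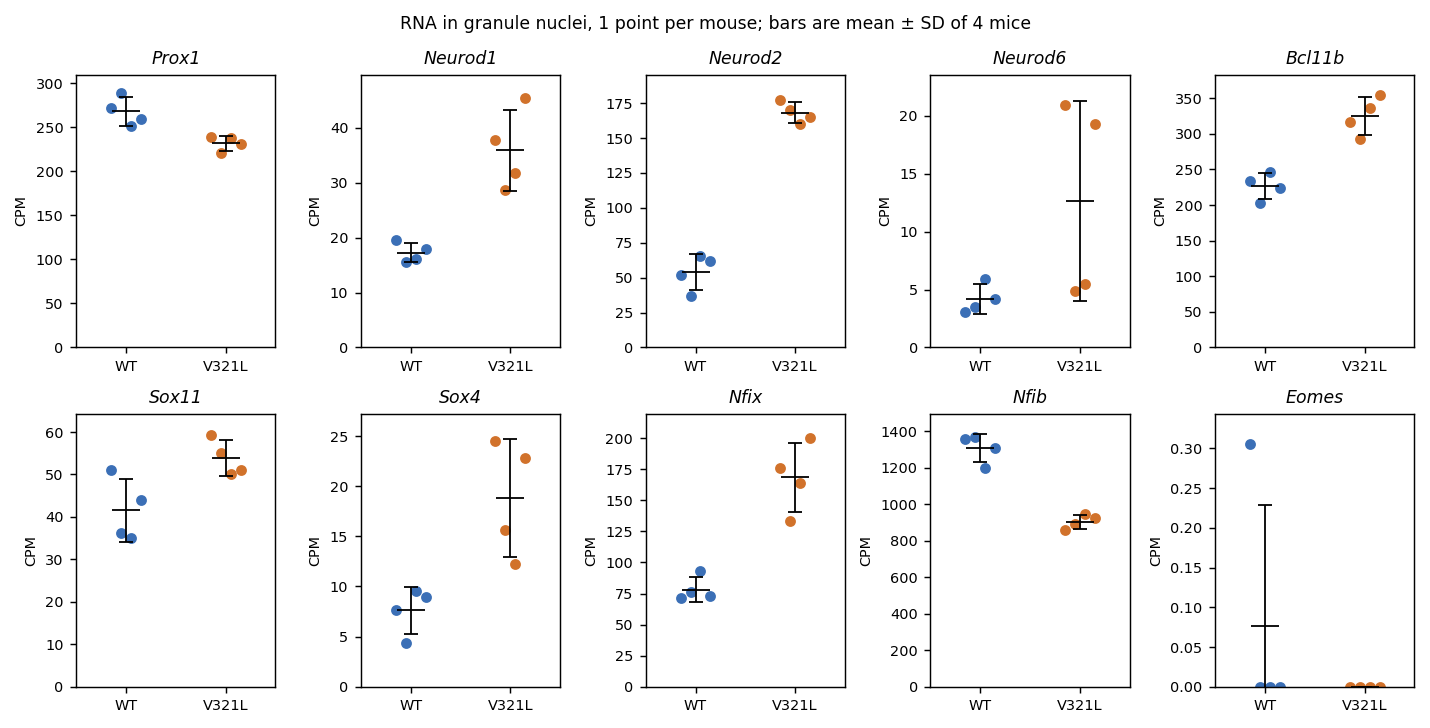
CPM of each gene in GC nuclei, 1 point per mouse, with mean ± SD of the 4 mice of each genotype (y axis from 0). *Neurod1*, *Neurod2*, *Bcl11b*, *Sox4* and *Nfix* are higher in every V321L mouse than in any WT mouse, *Prox1* and *Nfib* are lower, and *Neurod6* is split within the V321L mice. The share of all genes without overlap is not given.

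Because V321L nuclei were deeper, the share of GC nuclei with a UMI of each gene was compared after each nucleus was thinned to 1000 UMIs, leaving out shallower nuclei, which left 741 to 1749 GC nuclei per WT mouse and 791 to 1190 per V321L mouse. A *Neurod2* UMI was found in 14.99% ± 0.738 of V321L and 5.32% ± 1.78 of WT GC nuclei (SD, n = 4 mice each, P = 0.0286, two-sided exact permutation test, the smallest P that 4 against 4 mice allow). At the same depth a *Neurod2* UMI was found in 2.02% of V321L and 1.83% of WT oligodendrocytes and 5.6% of V321L and 5.21% of WT microglia, which should lack it. These glial shares pool the nuclei of a genotype. Per mouse, oligodendrocyte shares reached 3.33% in WT and 5.88% in V321L mice, and microglial shares 10% and 11.8%. WT GC shares ran from 3.37 to 7.42% per mouse, within the microglial range and overlapping that of V321L oligodendrocytes. V321L GC shares ran from 14.2 to 15.8%, above all of them. For *Nfix* the shares were 14.9% ± 3.02 and 6.79% ± 1.10, and for *Nfib* 57.2% ± 1.78 and 69.9% ± 3.20 (both exact permutation P = 0.0286). Oligodendrocytes and microglia may express both. *Nfix* was found in 24.0% of V321L and 15.6% of WT oligodendrocytes and 8% of V321L and 7.29% of WT microglia. *Nfib* was found in 22.8% of V321L and 58.7% of WT oligodendrocytes and 7.20% of V321L and 70.8% of WT microglia, so that the V321L share was the lower one there as in GC nuclei, a difference not tested in these classes.

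*Neurod1* was found in 3.35% ± 0.530 of V321L and 1.71% ± 0.365 of WT GC nuclei (exact permutation P = 0.0286), beside 0.289% of V321L and 1.83% of WT oligodendrocytes and 1.04% of WT and none of 125 V321L microglia, which allows up to 2.4%. The WT share in GC nuclei is thus not above that of WT oligodendrocytes, which rests on 2 of 109 nuclei. *Bcl11b* was found in 25.3% ± 2.88 and 20.2% ± 1.15 (exact permutation P = 0.0286), beside 3.76% of V321L and 13.8% of WT oligodendrocytes and 8.80% of V321L and 9.38% of WT microglia. *Prox1* was found in 20.6% ± 0.492 of V321L and 22.5% ± 1.08 of WT GC nuclei (exact permutation P = 0.0571), beside 17.1% of V321L and 11.01% of WT oligodendrocytes and 4.00% of V321L and 26.0% of WT microglia. The part of free RNA in these shares was not tested. *Sox11* was found in 5.05% ± 0.942 and 4.00% ± 0.668 (exact permutation P = 0.114), *Sox4* in 1.71% ± 0.636 and 0.840% ± 0.426 (exact permutation P = 0.114) and *Neurod6* in 1.35% ± 0.954 and 0.483% ± 0.0969 (exact permutation P = 0.143), and none of these passed. Over the 10 relations, 5 had the smallest possible P, which adjusts to 0.0571 over the 10. The smallest P means that the genotypes did not overlap. The share of all genes without overlap at this depth is not given, so the count stands without a background. Without thinning the *Prox1* share was 20.7 points and the *Nfib* share 11.4 points higher in V321L mice, so both directions turned with depth. *Sox4* was found in no oligodendrocyte of 455, which allows up to 0.659%, and in 11.2% of V321L and 6.25% of WT microglia. *Neurod6* was found in 1.16% of V321L oligodendrocytes and 1.60% of V321L microglia, and in none of 109 WT oligodendrocytes or 96 WT microglia, which allows up to 2.75% and 3.12%, so its GC shares cannot be told from background at this depth.

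GC clusters were themselves split by genotype. The largest, led by *C1ql2* and *Icam5*, was nearly all from V321L mice, and only the clusters led by *Vwa3b* and *Gpc4* and by *Sorcs3* and *Cartpt* had enough nuclei of all 8 mice. Within the first of these, *Neurod2* was 168 ± 25.3 CPM in V321L and 63.7 ± 12.7 CPM in WT mice (SD, n = 4 each), *Nfix* 193 ± 82.4 and 73.6 ± 16.2 CPM, *Nfib* 842 ± 53.0 and 1309.7 ± 147 CPM, and *Prox1* 214 ± 63.1 and 282 ± 21.5 CPM. Within the second, *Neurod2* was 101 ± 21.5 and 16.7 ± 14.3 CPM, *Nfix* 176 ± 35.3 and 52.7 ± 20.6 CPM, *Nfib* 898 ± 133 and 1242 ± 283 CPM, and *Prox1* 205 ± 61.2 and 197 ± 37.8 CPM. The *Neurod2* and *Nfix* values of the genotypes did not overlap in either cluster. The share of all genes without overlap in these clusters is not given, so this stands without a background. *Nfib* did not overlap in the first but did in the second, with 733 to 1057 CPM in V321L and 921 to 1560 CPM in WT mice. *Prox1* overlapped in both. *Neurod1* did not overlap in either, with 22.3 to 43.5 against 13.2 to 20.4 CPM and 26.6 to 52.8 against 0 to 13.8 CPM. In the cluster led by *C1ql2* and *Icam5*, however, its mean was lower in V321L (35.8 ± 8.46 CPM, n = 4) than in WT mice (48.3 ± 18.1 CPM, n = 3, 82 nuclei). *Sox4* overlapped in both, with 0 to 42.6 CPM in V321L and 3.29 to 16.4 CPM in WT mice in the first. In the second it was 0 to 33.0 CPM in V321L mice and 0 in every WT mouse.

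Gated neuroblasts were also compared between genotypes, with 2 WT and 4 V321L mice. They made up 0.222, 0.324, 0.143 and 0.759% of the lineage nuclei in WT F1, F2, M1 and M2 and 1.92, 2.90, 2.64 and 1.40% in the V321L mice, an excess of 1.85 points in V321L mice (P = 0.0286, two-sided exact permutation test, n = 4 each), and of 1.24 points at 1000 UMIs per nucleus (exact permutation P = 0.0286). The gate counts UMIs, and gated neuroblasts had a median of 1217 UMIs in WT and 1842 in V321L mice. Thinning leaves out shallower nuclei. Of the gated neuroblasts, 3, 4, 0 and 9 in the WT and 24, 36, 21 and 12 in the V321L mice had at least 1000 UMIs. The thinned share is thus not free of depth. As a share of lineage nuclei the neuroblast cluster was 2.71% ± 0.487 in V321L and 1.26% ± 0.540 in WT mice (SD, exact permutation P = 0.0286). Of the 10 factors only 5 had enough UMIs there, and none was called, where 15.1% of 842 genes were called (14% higher and 1.07% lower). The log2 difference, V321L over WT, was 1.06 ± 0.49 for *Prox1* (adjusted p = 0.199, unadjusted p = 0.0493 by edgeR's test) and 1.70 ± 0.63 for *Sox11* (adjusted p = 0.102, unadjusted p = 0.0183). DESeq2 also called none. In the neuroblast cluster, which kept all 8 mice, *Sox11* was called at 1.29 (adjusted p = 0.0225), where 15.2% of 762 genes were called (12.6% higher and 2.62% lower). That cluster held 7 to 24 nuclei outside the gate in each WT and 3 to 11 in each V321L mouse, and *Igfbpl1*, a marker of the gate, was 260.2 ± 145 CPM in its WT and 1284 ± 581 CPM in its V321L nuclei, and the part of this in the *Sox11* value was not tested.

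To ask whether the genotype difference itself differed between neuroblasts and GC nuclei, the interaction was tested. None of the 9 genes was called, where 0.108% of 12084 genes were (13 genes, with 891 at an unadjusted p under 0.05, and no member by DESeq2). For *Prox1*, lower in V321L GC nuclei, the interaction was 1.70 ± 0.54 (adjusted p = 0.242), and for *Sox11* it was 1.68 ± 0.57 (adjusted p = 0.303).

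Outside the lineage, the genotypes were compared in 7 classes with at least 10 nuclei in 3 or more mice of each genotype. Of 26 pairs of gene and class tested, 17 were called, 9 higher and 8 lower in V321L mice. Of all genes tested in a class, between 20.3% (oligodendrocyte precursors) and 53.5% (oligodendrocytes) were called. The direction of *Nfib*, *Neurod2*, *Neurod6* and *Nfix* in every called class was that seen in GC nuclei, while *Bcl11b* was called in both directions. The classes share libraries, so they are not independent.

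*Nfib* was lower in V321L mice in 5 of 7 classes. In oligodendrocytes it was 851 to 1084 CPM in WT and 175 to 324 CPM in V321L mice, a log2 difference of -1.81 ± 0.26 (adjusted p = 4.87e-05, with 53.5% of genes called in this class, 27.5% higher and 26.1% lower). The V321L libraries also had a lower CPM of *Nfib* in free RNA, as given above, at levels near those of oligodendrocytes in both genotypes. The part of free RNA in the *Nfib* differences of these classes was not tested. In microglia (52.6% called, 29% higher and 23.6% lower) *Nfib* differed by -2.92 ± 0.93 (adjusted p = 0.0245), a call that was lost without V321L F2 (adjusted p = 0.0699). Its V321L values were 0, 26.2, 16.1 and 425 CPM in F1, F2, M1 and M2. The microglia of F1, F2 and M1 held only 53521, 114409 and 62165 UMIs of all genes, so their values rest on very few *Nfib* UMIs. Without M2 the call was kept, but the fitted difference is then no bound and is not given. In the cluster led by *Cntnap5c* and *Nectin3* (51.7% called, 27.5% higher and 24.2% lower) it differed by -0.91 ± 0.18. In CA pyramidal nuclei (33.3% called, 19.6% higher and 13.8% lower) it differed by -0.55 ± 0.20 (adjusted p = 0.0327) and in astrocytes or radial glia (50.1% called, 24.8% higher and 25.3% lower) by -0.62 ± 0.22 (adjusted p = 0.0276). The last 2 calls were lost with library sizes alone and without any of several single mice (WT M2 or V321L F1, F2 or M2, and WT F1, WT F2 or any V321L mouse).

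*Nfix* was higher in V321L mice in 3 of 5 classes. In GABAergic nuclei (35.7% called, 20.2% higher and 15.5% lower) it was 12.2 to 32.2 CPM in WT and 71.7 to 125 CPM in V321L mice, a log2 difference of 1.78 ± 0.34 (adjusted p = 0.000596). In the *Cntnap5c* and *Nectin3* cluster it differed by 1.23 ± 0.23 and in oligodendrocytes by 1.19 ± 0.26 (adjusted p = 0.00158).

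*Neurod2* was 24.8 to 91.6 CPM in WT and 104 to 157 CPM in V321L CA pyramidal nuclei (n = 4 and 3 mice), a log2 difference of 1.45 ± 0.41 (adjusted p = 0.00882, lost without WT M2). In the *Cntnap5c* and *Nectin3* cluster it was 22.8 to 75.9 and 160.5 to 227 CPM, a difference of 1.55 ± 0.28. *Neurod6*, in the neurons where it is most abundant, was 55.9 to 114 CPM in WT and 147 to 224 CPM in V321L CA pyramidal nuclei, a difference of 1.32 ± 0.33 (adjusted p = 0.00351), and 1.19 ± 0.23 in the *Cntnap5c* and *Nectin3* cluster.

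*Bcl11b* was lower in V321L oligodendrocytes, with 120.2 to 212 CPM in WT and 13.4 to 36.5 CPM in V321L mice (-2.57 ± 0.37), and in astrocytes or radial glia (-1.51 ± 0.38, adjusted p = 0.00439). It was higher in GABAergic nuclei by 0.84 ± 0.32 (adjusted p = 0.0475), a call lost without any mouse but V321L F1 or M1. *Prox1* was lower in V321L astrocytes or radial glia, 102 to 221 CPM in WT and 9.80 to 70.1 CPM in V321L mice, a difference of -1.97 ± 0.41 (adjusted p = 0.00107). As given above, V321L libraries also had a lower CPM of *Prox1* in free RNA, and the part of free RNA in this difference was not tested. Free RNA of *Bcl11b* was 385 to 527 CPM in WT and 159 to 227 CPM in V321L libraries. In each genotype this was above the levels in oligodendrocytes and in astrocytes or radial glia, and it was lower in V321L as in these 2 classes. The part of free RNA in their values was not tested. *Sox4* was higher in V321L oligodendrocyte precursors (20.3% called, 14.3% higher and 5.97% lower), 59.2 to 278 CPM in WT and 152 to 321.02 CPM in V321L mice, by 1.75 ± 0.41 (adjusted p = 0.00394).

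**Figure D4:**
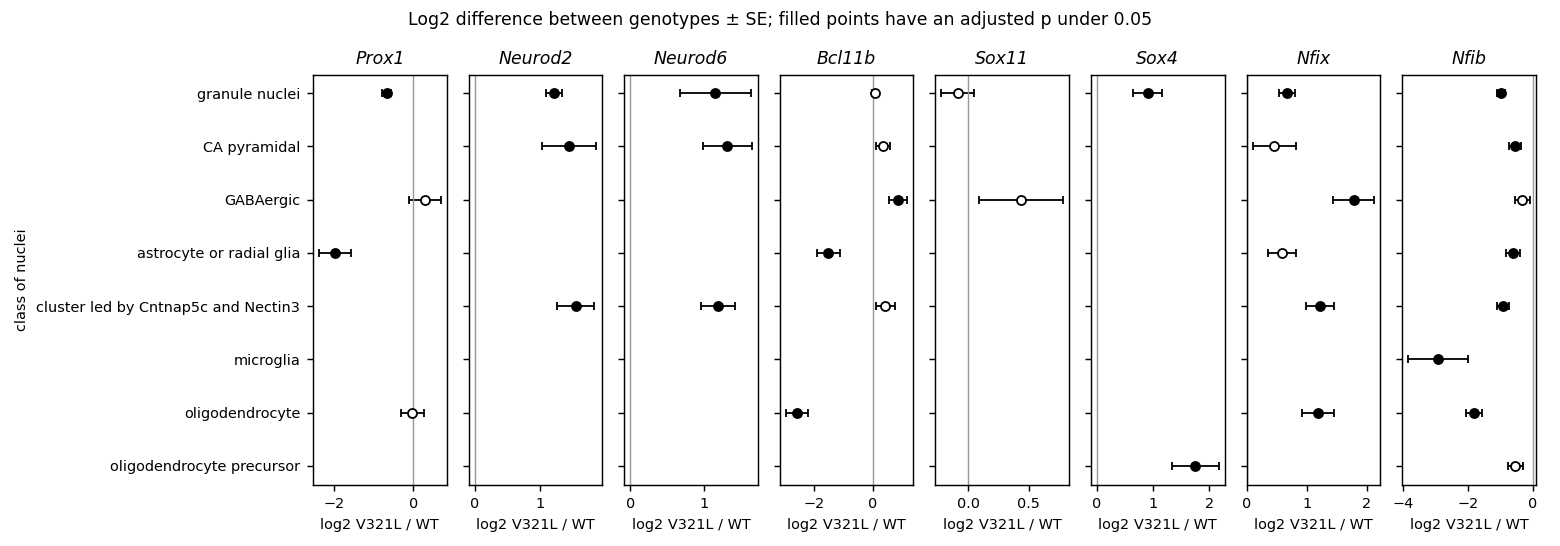
Fitted log2 differences between V321L and WT mice ± SE (x axis, right of 0 higher in V321L, scaled per gene) for each gene tested in GC nuclei and at least 1 other class (rows), with filled points for an adjusted p under 0.05. *Nfib* lies left of 0 in every class tested, while *Bcl11b* lies on both sides.

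Accessibility was read as ATAC counts in peaks that overlap the transcription start site (TSS) of a gene ± 1 kb, with TSS positions as the matrices give them. Peaks had been called in each library on its own, so a gene was tested only with such a peak in all 8 libraries. This held for 7 of the 10 genes. *Neurod2* and *Neurod6* had a peak in 7 libraries and *Eomes* in 2. The TSS of *Prox1* is given as chr1:190169399-190170714, which spans 1316 bases, and that of *Sox11* as a single base at chr12:27342574. The *Nfix* TSS spans 26949 bases (chr8:84773396-84800344), so its window is far wider than those of the other genes.

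In GC nuclei none of the 7 genes was called in TSS accessibility between genotypes, where 0.0153% of 13033 genes were called (2 genes, with 1074 at an unadjusted p under 0.05). *Bcl11b* was 32.6, 28.8, 32.7 and 28.5 ATAC CPM in WT F1, F2, M1 and M2 and 56.6, 34.1, 27.7 and 47.3 in the V321L mice, a log2 difference of 0.30 (adjusted p = 0.594). *Nfib*, whose RNA was lower in V321L mice, was 58.2, 66.6, 56.3 and 65.2 ATAC CPM in the WT and 75.2, 46.8, 45.0 and 69.0 ATAC CPM in the V321L mice, a log2 difference of -0.18 (adjusted p = 0.634). *Prox1* was 28.0, 29.4, 24.3 and 32.7 ATAC CPM in the WT and 33.5, 24.2, 19.1 and 45.1 ATAC CPM in the V321L mice. The V321L mice spread more than the WT mice. V321L F1 and M2, with 3073637 and 2260059 ATAC counts in GC nuclei the least covered, were the highest V321L mice for 6 of the 7 genes, such as *Prox1* and *Nfib*, the exception being *Nfix*. Their libraries had 42140 and 36556 peaks, against 94282 and 130470 in V321L F2 and M1. ATAC CPM divides by the counts in a library's own peaks. The bases counted also differed, such as 1747 for *Nfix* in V321L M2 and 6596 in M1. The part of this in the spread was not tested.

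**Figure D5:**
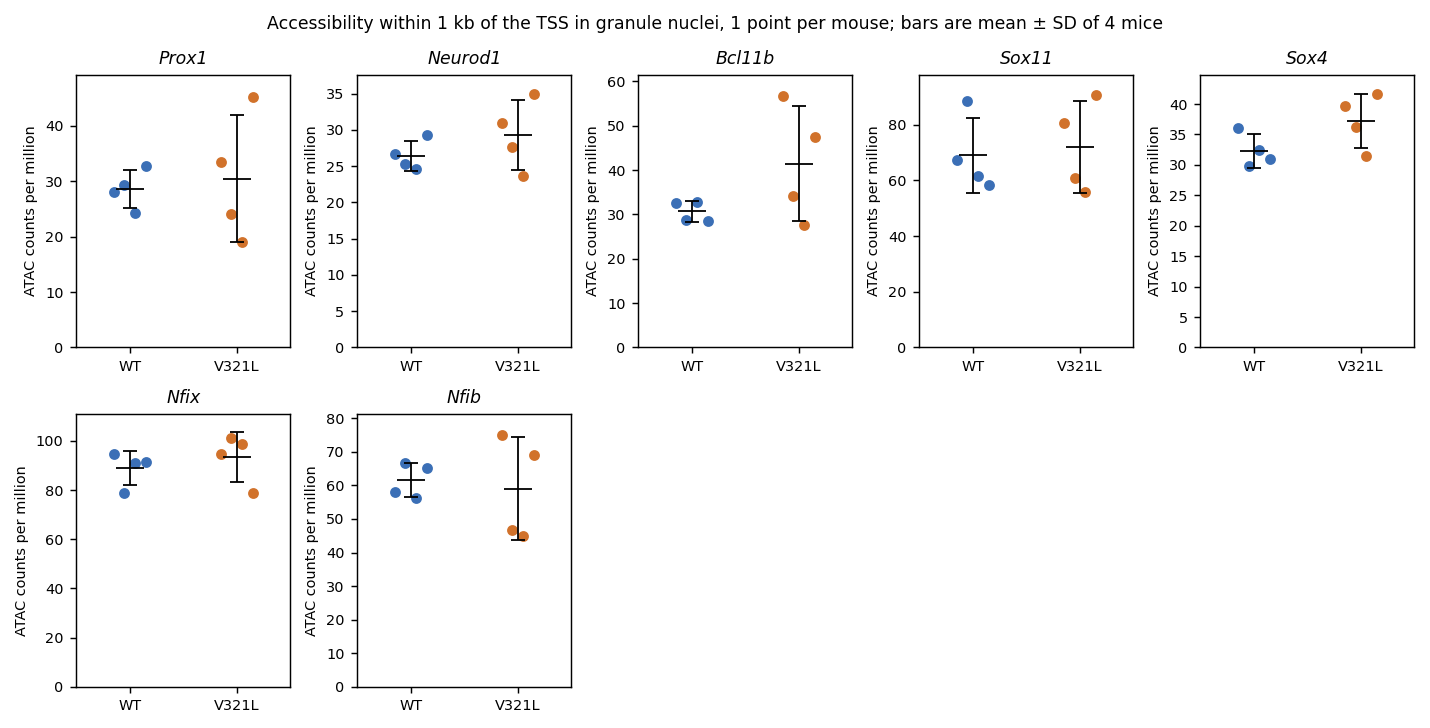
ATAC counts in peaks within 1 kb of the TSS as CPM of all ATAC counts of the GC nuclei, 1 point per mouse, with mean ± SD of 4 mice (y axis from 0), for the 7 genes with a peak in every library. WT and V321L mice overlap for every gene.

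Between gated neuroblasts and GC nuclei of the same 6 mice, again none of the 7 genes was called in TSS accessibility, where 1.54% of 13017 genes were called (0.108% higher and 1.43% lower). The log2 difference of *Nfix* was 0.70 ± 0.33 (adjusted p = 0.408) and that of *Bcl11b* -1.26 ± 0.66 (adjusted p = 0.483).

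Of 27 other transcription factors of dentate neurogenesis, 19 could be tested between gated neuroblasts and GC nuclei. Of these 5 were higher in neuroblasts, led by *Sox5* (3.80 on the log2 scale), *Emx2* (2.00), *Lhx2* (1.66) and *Tbr1* (1.54), a T-box factor that follows Eomes in glutamatergic neurons. *Klf9* (-1.35) and *Mef2c* (-1.30), factors of mature neurons, were lower. These differences come from the fit with TMM factors alone, and other scalings were not examined for this list. Between genotypes in GC nuclei, where 70% of all genes were called, 17 were tested, of which 6 were higher in V321L mice, among them *Bhlhe22* (1.40), *Emx1* (1.31) and *Nfic* (0.87), and 8 lower, led by *Sox5* (-2.19), *Nfia* (-1.46), *Sox9* (-1.26) and *Foxo3* (-1.14). None of 5 tested was called between genotypes in gated neuroblasts and none of 12 in TSS accessibility.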

How the data were processed

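The authors deposited, for each of 8 mice, raw UMI counts of genes and ATAC counts of peaks called in that library, for all barcodes. The submitters' notes name Cell Ranger, Seurat, Signac and mm10. Whether counting used strand is not given in the sources used here. The 16 GEO samples are an RNA and an ATAC sample per mouse, and both kinds of count stand in 1 matrix. Groups came from the labels, and replicates were separate mice. The 10 genes and all gene lists were chosen with earlier results of these data known.

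Nuclei had more than 500 UMIs, more than 250 genes, at least 500 ATAC counts and values within the study's upper limits. Scrublet scores above the library mean + 2 SD were removed as doublets. Nuclei were clustered with scanpy 1.11.5 (3000 variable genes without the 10, 75 components, 20 neighbours, Leiden resolution 1) and named from marker lists. UMIs were summed per mouse and class and tested with edgeR 4.0.16 (quasi-likelihood test, TMM factors, filterByExpr), with p adjusted by Benjamini-Hochberg over all genes tested and 0.05 as the threshold. A ± beside a log2 difference is its SE. Shares were compared by two-sided exact permutation tests over mice, and intervals cover counting error only. Tests were checked on simulated counts. DESeq2 1.42.0 and other scalings, filters, gates, thinning and each mouse left out were the alternatives. The replicate numbers of the labels (F1, F2, M1, M2) did not pair the mice. Named genes were the 10 members, and of the other lists those called with the largest changes. The values of 1 gene of these lists are not reported here.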

Additional observations from a re-analysis of the deposited data

Results flagged for a closer look

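Among the 64 groups of 4 mice examined, 3 held a mouse far from the others, where chance flags about 1 group in 20. All 3 concern *Eomes*. In GC nuclei *Eomes* was 0.305 CPM in WT F1, from 1 UMI, and 0 in the other WT mice, and correspondingly 0.0925% of the WT F1 nuclei thinned to 1000 UMIs held it. In gated neuroblasts of V321L mice it was 0 in F1, where the others had 57.7 to 62.1 CPM.

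*Bcl11b* had V321L values all below the WT values in astrocytes or radial glia (mean difference -79.6 CPM) and in oligodendrocytes (-141 CPM), and all above them in GC nuclei (97.7 CPM). In GC nuclei the fit gave a log2 difference of 0.07 (adjusted p = 0.505), and its direction turned by DESeq2, by its size factors, after thinning and with GC nuclei taken by marker UMIs. The difference between these classes was not tested, nor was the part of free RNA, which had a lower CPM of *Bcl11b* in V321L libraries.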

How the results depend on the processing

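The values that answer a comparison are mostly counts of genes called. Under the alternatives 130 of them were equal or near to the main value, which does not mean that the same genes were called. Another 21 moved and 8 became weaker. These 8 are the neuroblast shares without 1 mouse, where no P under 0.05 was possible. Of the values of single genes, 504 kept their direction and side of the threshold, 19 became stronger, 87 became weaker and 13 reversed. Between genotypes in GC nuclei 7 genes were called, 4 after thinning and 6 to 7 without 1 mouse. In neuroblasts 0 were called between genotypes and 1 in the neuroblast cluster. Between neuroblasts and GC nuclei 5 were called, 3 without the mouse block, 1 in WT mice alone and 3 to 6 without 1 mouse (3 without V321L M1). The shares of all genes called under these alternatives are not given here, so the counts stand without a background. The neuroblast share differed by 1.63 to 2.12 points without 1 mouse, where 3 against 4 mice allow no P below 0.0571. Of the shares with a UMI 5 had an unadjusted P under 0.05 (adjusted p = 0.0571 over the 10), and 8 without thinning, where *Prox1* (20.7) and *Nfib* (11.4) reversed. Also reversed were, between genotypes, *Bcl11b* (-0.0221 by DESeq2, -0.0205 by its size factors, -0.0613 thinned, -0.00900 with GC nuclei taken by marker UMIs) and *Sox11* (0.37 by library sizes, 0.0165 with no filter), and between classes *Neurod2* (0.0508 by library sizes, 0.0714 by abundant genes), *Neurod6* (-0.22 by a strict gate, -0.0779 to 0.936 without 1 mouse, the lowest without V321L F1) and *Prox1* (-0.14 in WT mice alone). Differences that were called under no setting also changed sign in other comparisons (TSS accessibility, the interaction, neuroblasts between genotypes and other classes) and are not listed. The cause was not tested. The thinned comparison of neuroblasts between genotypes could not be fitted, since no WT mouse kept 5. With the replicate block the genes called were 7 in GC nuclei, 0 in neuroblasts and 0 in TSS accessibility. Same-numbered mice deviated with correlations of 0.220, 0.498, -0.149 and 0.180, and not every mouse correlated best with its own number. WT mice gave 25 gated neuroblasts, which limits the comparisons that use them.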

Other observations

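Over the 15 classes, and among 7984 genes, the levels most like those of *Prox1* were those of *Dcaf8* (Pearson r = 0.92) and its antisense gene *Prox1os* (0.91), whose reads cannot be told apart from *Prox1* unless counting used strand. *Neurod6* was most like *Slc9a2* and *Khdrbs3* (both 0.91), and *Eomes* most like *Gal* (0.97) and *Igfbpl1* (0.86), the latter a marker of the gate. The classes share libraries and depth, so these values are descriptions.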
